A study of Mus musculus with 9 samples.

Results

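The albumin gene family in the mouse comprises Alb, Afp, Afm and Gc, 4 genes for related plasma proteins, and it was followed here in cells sorted from differentiating embryonic stem cells. The members are those listed for the family, and a member was measured where a probe set carried its symbol alone in the platform annotation, with the brightest probe set kept per gene. Afp (probe set 17438903), Alb (17438886) and Afm (17438920) each had 1 such probe set. The rule found no probe set for Gc, whose RNA level was not analysed here, so 3 of 4 members have values, out of 22180 genes in the series.

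The cells were mouse embryonic stem cells with a transgene, Afp::GFP, in which the alpha-fetoprotein promoter drives green fluorescent protein. They were differentiated as embryoid bodies, which are aggregates of stem cells, in medium with serum, transferrin and ascorbic acid, and on gelatin so that the bodies attached and spread. Cells positive for the reporter were isolated by flow cytometry at day 4, day 7 and day 21, and each day has 3 arrays, so all 3 groups carry the same transgene and differ in the day of sorting. No group of reporter-negative or unsorted cells is part of the 9 arrays. The sort used the promoter of a member of the family, so the level of Afp is tied to how the cells were chosen on every day. Alb, Afm and Gc were not used in the sort.

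Proteins of this family are secreted into plasma mainly by the liver and carry small hydrophobic ligands. Albumin, the product of Alb, is the most abundant plasma protein of the adult and carries fatty acids and many other compounds. Alpha-fetoprotein, the product of Afp, is its fetal counterpart, a product of the visceral yolk sac and the fetal liver that is shut down in liver after birth. Afamin, from Afm, binds vitamin E and keeps lipid-modified Wnt proteins soluble, and the product of Gc carries vitamin D and binds actin. Alb, Afp and Afm stand side by side in the same orientation, and upstream enhancers of Afp are known to act on more than 1 gene of the cluster.

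The regions upstream of the annotated starts are shown because the genes share a sequence feature there that the choice of members did not use. Each sequence holds the 250 bases before the RefSeq start, 5′ to 3′ on the gene's own strand, on build GRCm38.p6. Capitals mark the letters GTTAAT on either strand and the TATA box letters TATAAA on either strand.
Alb, plus strand, chr5:90460620-90460869: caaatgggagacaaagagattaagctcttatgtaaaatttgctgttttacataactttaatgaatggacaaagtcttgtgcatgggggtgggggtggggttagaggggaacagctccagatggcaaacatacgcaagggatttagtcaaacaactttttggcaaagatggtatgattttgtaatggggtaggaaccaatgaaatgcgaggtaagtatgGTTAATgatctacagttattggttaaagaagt
Afp, plus strand, chr5:90490464-90490713: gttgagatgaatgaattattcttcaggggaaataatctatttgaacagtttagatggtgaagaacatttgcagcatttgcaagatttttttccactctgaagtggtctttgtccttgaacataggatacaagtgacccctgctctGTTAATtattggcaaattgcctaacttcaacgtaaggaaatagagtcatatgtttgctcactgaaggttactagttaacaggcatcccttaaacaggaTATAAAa
Afm, plus strand, chr5:90518699-90518948: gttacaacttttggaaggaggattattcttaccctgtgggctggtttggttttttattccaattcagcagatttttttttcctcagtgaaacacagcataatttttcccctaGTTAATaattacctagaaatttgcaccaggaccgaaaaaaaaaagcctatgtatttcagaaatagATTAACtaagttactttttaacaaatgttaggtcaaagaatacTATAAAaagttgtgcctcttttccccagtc
Gc, minus strand, chr5:89457899-89458148: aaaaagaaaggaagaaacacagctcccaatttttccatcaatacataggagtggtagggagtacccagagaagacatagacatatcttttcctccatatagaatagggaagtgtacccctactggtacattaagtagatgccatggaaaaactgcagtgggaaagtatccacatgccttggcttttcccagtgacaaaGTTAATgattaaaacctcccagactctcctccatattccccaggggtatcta

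All 4 regions held GTTAAT, which was present in 6.43% of the 32851 promoter entries of the same length in the RefSeq table. In each of the 4 genes 1 of these matches continued as GTTAATNAT, where N is any base, and this longer form, which contains the shorter one, was found in 0.737% of entries. The longer motif was written down after the 4 sequences had been read. It began 32 bases before the start in Alb, 52 in Gc, 105 in Afp and 138 in Afm, always on the gene's own strand, and Afm had a further GTTAAT on the other strand. TATAAA was found in Afp and Afm and in 12.4% of entries. The C/EBP motif TTNNGCAA matched once in Alb and once in Afp (9.56% of entries), the CCAAT box letters matched all 4 (33.8%), and the FOXA motif TGTTTAC (3.17%) and the HNF4 motif CAAAGTCCA (0.384%) matched none. These are matches of letters on both strands in a fixed window, not measured binding.

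The 9 arrays were alike in scale, with median log2 signals from 5.88 to 5.98 over all probe sets. Across genes, which do not act as independent replicates, arrays correlated at 0.984 to 0.991 within a day and at 0.938 to 0.971 between days. As a reference for probe sets without signal, the 95th percentile of 1105 olfactory receptor genes was taken on each array, and it lay between 5.91 and 6.19. Day means over this line are called above background, and signals under it give no order of levels.

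Afp was the member that rose in both steps. Its log2 signals were 5.93, 5.62 and 5.62 on the day 4 arrays, 10.68, 10.59 and 10.54 on the day 7 arrays, and 13.12, 13.14 and 12.95 on the day 21 arrays. The 3 days did not overlap, and the day 4 arrays, of cells sorted for the Afp reporter, all lay under the background reference. Means were 5.72 ± 0.18, 10.60 ± 0.07 and 13.07 ± 0.11 (SD, n = 3 arrays per day).

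From day 4 to day 7 the signal of Afp changed by 4.88 ± 0.11 (log2, SE), with a 95% interval from 4.63 to 5.13 and a limma adjusted p of 7.37e-09. By measured signal it was the third largest rise among the 22180 genes, a rank that includes genes starting under background. Since the starting mean was under background, the rise is best read as at least 23.2-fold, set against the reference signal in place of the measured one. From day 7 to day 21 Afp rose again, by 2.47 ± 0.11, a 5.53-fold rise between means that were both above background (adjusted p = 1.78e-07). Over the whole interval the change was 7.35 ± 0.11, ranked first by measured signal, and at least 128-fold against the reference. The second step was smaller than the first by 2.41 ± 0.20 on the log2 scale (adjusted p = 1.60e-05), and 5.53-fold is also below the bound of 23.2-fold for the first. The steps are of unequal length, so this compares steps and not rates.

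Alb was under background at days 4 and 7 and high at day 21. Its log2 signals were 5.16, 5.57 and 5.14 at day 4, 5.36, 5.22 and 5.36 at day 7, and 11.53, 11.71 and 11.25 at day 21. The day 4 and day 7 arrays overlapped, and each day 21 array was far above all of them. Means were 5.29 ± 0.24, 5.31 ± 0.08 and 11.50 ± 0.23 (SD, n = 3 arrays per day).

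Between days 4 and 7 the change of Alb was 0.02 ± 0.15, with a 95% interval from -0.31 to 0.35 and an adjusted p of 0.966, and with both means under background it bounds the array signal only. Between days 7 and 21 Alb rose by 6.19 ± 0.15 (adjusted p = 2.83e-09). The measured ratio was 72.9-fold, and against the reference signal it was at least 43.4-fold. By measured signal the second step exceeded the first by 6.17 ± 0.26 (adjusted p = 1.53e-07), a difference whose size rests on day 4 and day 7 signals under background.

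Afm, for afamin, was likewise under background at days 4 and 7 and above it at day 21. Its log2 signals were 4.07, 4.14 and 4.22 at day 4, 4.30, 4.23 and 4.40 at day 7, and 6.56, 7.02 and 6.98 at day 21. Day 7 arrays all lay just above the day 4 arrays, and both sets were well under the reference, while all day 21 arrays exceeded it. The change from day 4 to day 7 was 0.17 ± 0.13 and did not pass (95% interval from -0.12 to 0.46, adjusted p = 0.511).

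Afm then rose by 2.54 ± 0.13 between days 7 and 21 (adjusted p = 3.23e-07), from a mean of 4.31 ± 0.09 to 6.85 ± 0.25 (SD, n = 3). The measured ratio was 5.83-fold. Because the start was so far under the reference, the bound is only at least 1.74-fold, so the size of this rise is much less certain than its call. By measured signal the second step exceeded the first by 2.37 ± 0.22 (adjusted p = 4.28e-05), and with both earlier days under background this describes the array signals and not the size of a change in RNA.

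**Figure D1:**
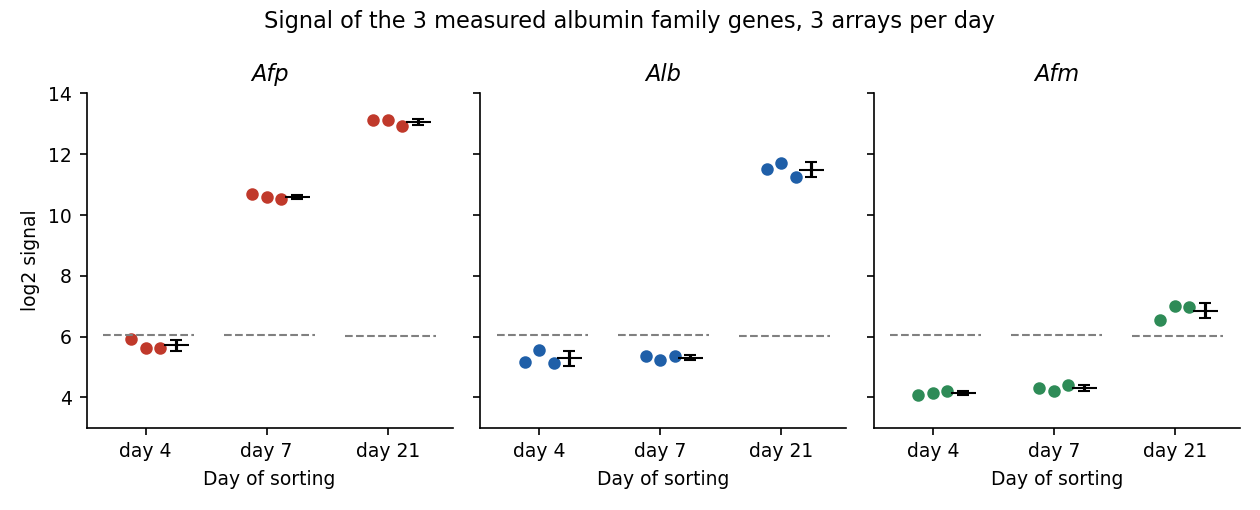
Log2 signal (vertical axis) of Afp, Alb and Afm at each day of sorting, with 1 point per array, a black mark and bar for the mean ± SD of 3 arrays, and a dashed line at the mean 95th percentile of olfactory receptor genes on that day. Afp climbs from 5.72 through 10.60 to 13.07, whereas Alb and Afm stay under the line at days 4 and 7 and lie above it at day 21.

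Set against all genes, 1 of 3 measured members was called higher at day 7 than at day 4 and 0 lower, where 6.98% of genes were called higher and 6.47% lower. At day 21 against day 7 all 3 measured members were called higher, where 12.4% of genes were called higher and 10.7% lower. The same 3 were called higher at day 21 against day 4, where the shares were 15.0% and 14.1%. Arrays of the compared days did not overlap for Afp in any comparison, where 29.9% of genes had no overlap between days 4 and 7, 35.5% between days 7 and 21, and 40.4% between days 4 and 21. Afm too had no overlap between days 4 and 7, without passing the test. For the difference between the steps, Alb and Afm were among the 8.33% of genes called higher and Afp among the 6.32% called lower. The comparisons share arrays, so they are not independent.

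**Figure D2:**
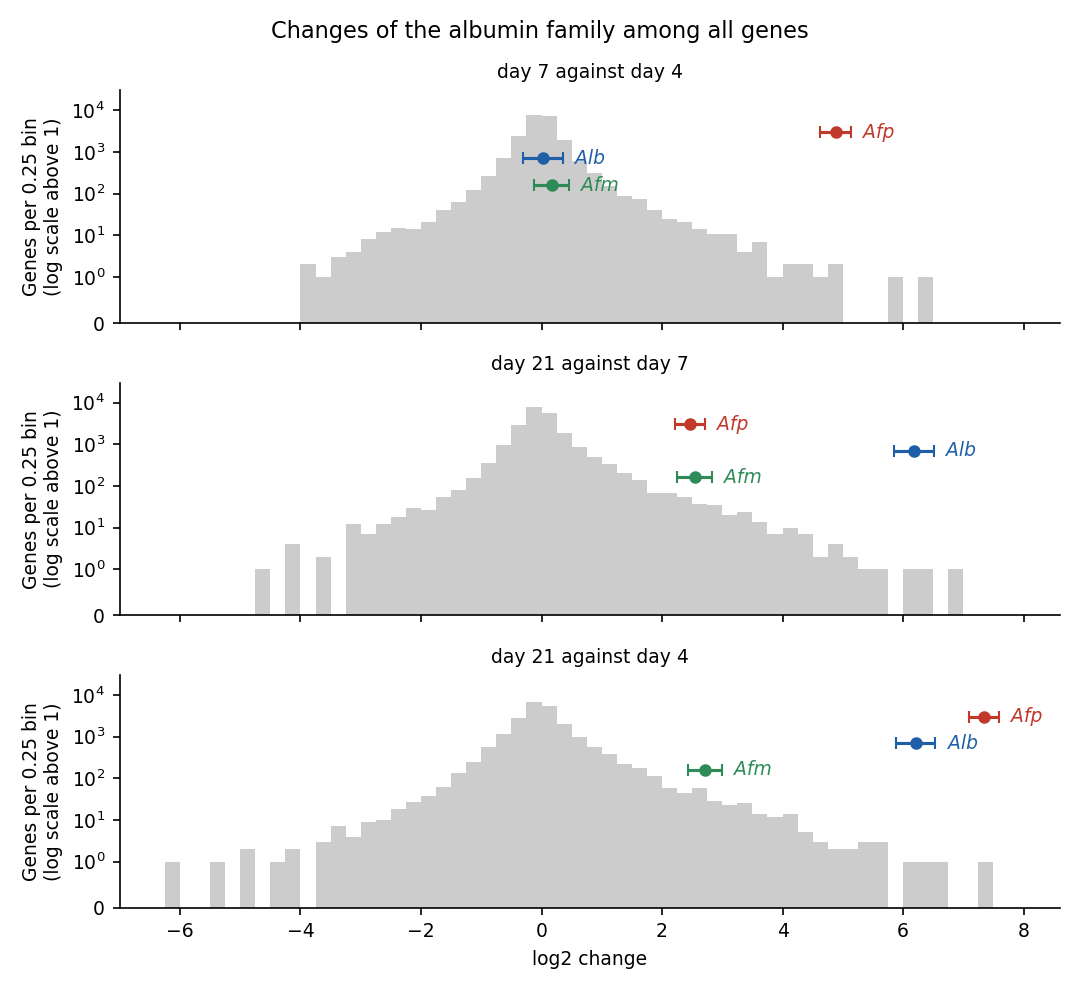
Number of genes by log2 change (horizontal axis, bins of 0.25, vertical axis logarithmic above 1) in the 3 comparisons, with the members drawn as points with 95% intervals at arbitrary heights. Afp stands at 4.88, 2.47 and 7.35, Alb at 0.02, 6.19 and 6.21, and Afm at 0.17, 2.54 and 2.71.

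The members were compared with each other through the difference of their log2 signals within each array, which compares changes and not levels. These differences use measured signals, and those of Alb and Afm at days 4 and 7 were under background, so their sizes are not differences in RNA. In the first step Afp changed by 4.86 more than Alb and by 4.71 more than Afm. In the second step Alb changed by 3.72 more than Afp, a difference of -3.72 for Afp minus Alb, and by 3.64 more than Afm. Against the reference, the second step of Alb was at least 43.4-fold and that of Afm at least 1.74-fold, beside 5.53-fold for Afp. The measured difference between Afp and Afm in the second step was -0.08 with overlapping arrays (exact permutation p = 0.8, two-sided), which does not show that their RNA changed alike. Alb and Afm differed by -0.15 in the first step, also with overlap (exact permutation p = 0.5). Of the 9 tests made, 7 showed no overlap between days. Each of the 7 had an exact permutation p of 0.1, the smallest that 3 against 3 arrays allow, and 0.129 after adjustment over the 9. No pair passed, and none could have passed this test. No model with a pooled spread was fitted to these differences.

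The genes around the family were read in chromosome order, taking 8 protein-coding genes on each side of the cluster and of Gc. All 20 neighbours were measured. Between Gc and the cluster lie Npffr2, Adamts3, Cox18 and Ankrd17, and none of these 4 was called in any comparison. Npffr2 was under background on all 3 days and Adamts3 at days 4 and 21, so their missing calls do not show steady RNA. Cox18 and Ankrd17 were above background on all 3 days. Ankrd17, next to Alb, is a broadly expressed ankyrin repeat protein and had log2 signals of 10.55 ± 0.01, 10.58 ± 0.07 and 10.51 ± 0.17 at days 4, 7 and 21 (SD, n = 3). Its changes were 0.03 and -0.07 in the steps in which Afp and Alb rose most.

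On the far side of Afm lies Albfm1, a further gene of the albumin superfamily that is not among the listed members. Albfm1 signals were 4.94, 5.14 and 4.50 at day 4, 4.20, 4.88 and 5.08 at day 7, and 5.68, 5.58 and 5.58 at day 21. The day 21 arrays were higher than all others but still under the background reference. Its change from day 7 to day 21 was 0.90 ± 0.22 (adjusted p = 0.0133), and the upstream region of Albfm1 also holds GTTAATNAT, beginning 48 bases before the start. Rassf6, a Ras association domain protein and the next gene, rose by 0.99 ± 0.16 by day 7 and by 0.52 ± 0.16 more by day 21, and its day 4 mean was under background.

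Beyond these, Slc4a4, a bicarbonate cotransporter next to Gc, fell to 6.93 ± 0.16 at day 7 from 8.70 ± 0.03 and rose to 9.40 ± 0.14 at day 21. The chemokine genes Cxcl15 and Cxcl1 rose by 2.52 ± 0.17 and 0.79 ± 0.11 from day 7 to day 21. Both were under background at days 4 and 7. Dck, deoxycytidine kinase, fell in both steps, by 0.50 and 0.58 on the log2 scale. Grsf1, an RNA-binding protein, fell in the first step by 0.56, and Utp3, of ribosome biogenesis, fell in the second by 0.34. Enam, Jchain, Rufy3, Mob1b, Cxcl5, Ppbp, Pf4 and Cxcl3 were not called in any comparison. Of these, Rufy3 and Mob1b were above background on all 3 days. Enam, Jchain, Cxcl5, Ppbp, Pf4 and Cxcl3 were under it on all 3 days, so their missing calls do not show steady RNA. In all, 1 neighbour rose and 3 fell in the first step, 5 rose and 2 fell in the second, and 5 rose and 3 fell from day 4 to day 21. Over all genes, 6.98% were called higher and 6.47% lower in the first step, and 12.4% and 10.7% in the second. From day 4 to day 21 the shares were 15.0% and 14.1%, and the neighbour counts were not tested against them. The neighbours' 2 falls of the second step became 1 without any 1 of the day 7 replicates or without day 21 replicate 1 or 3. The neighbours' median changes were 0.04, 0.12 and 0.18, beside medians of -0.01, -0.03 and -0.03 over all genes.

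**Figure D3:**
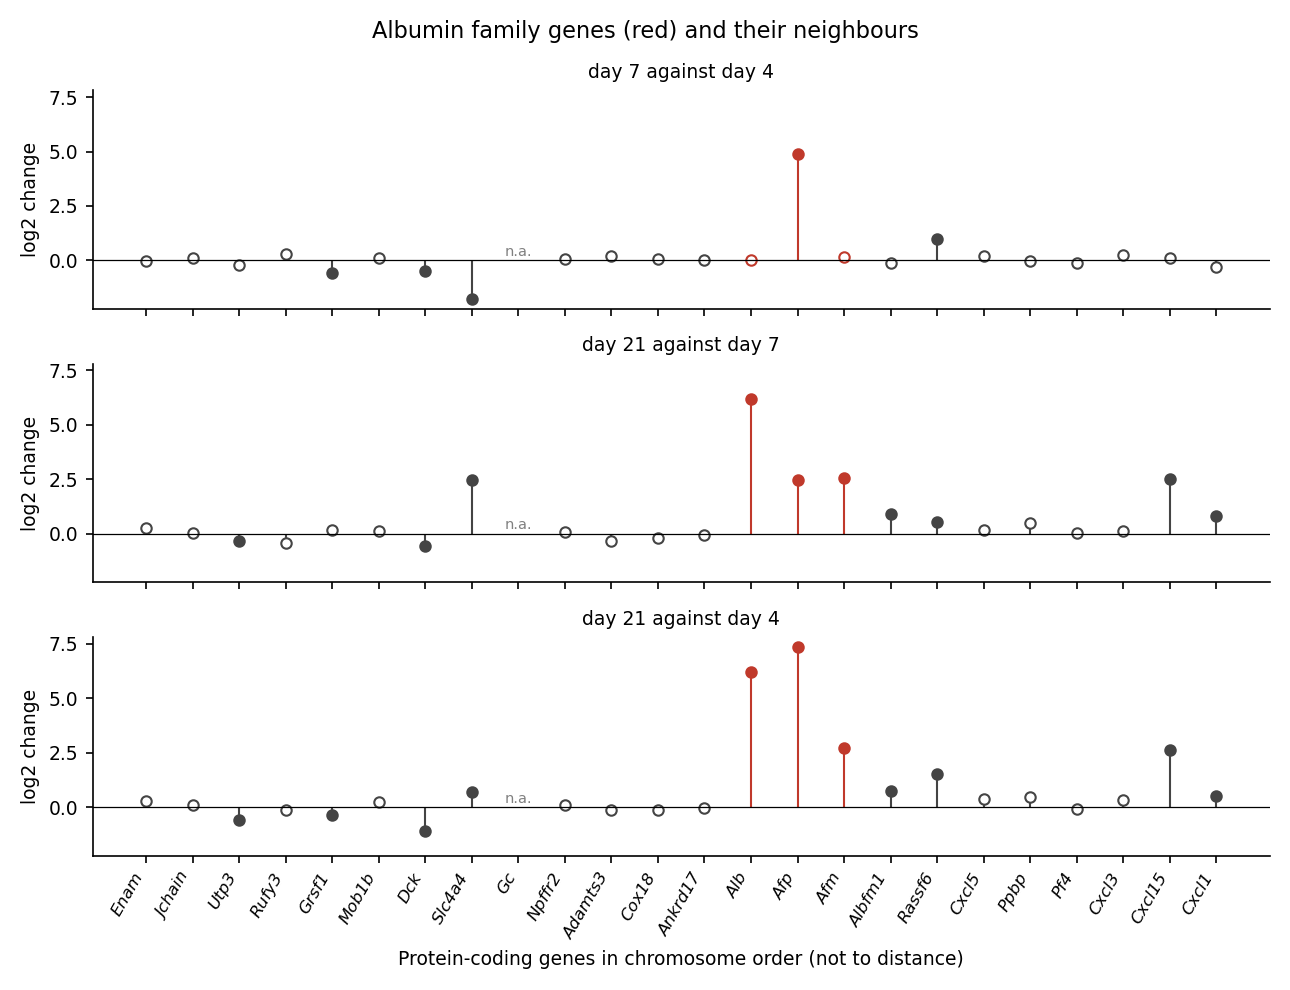
Log2 change (vertical axis) of the family (red) and its 20 neighbours (grey) in chromosome order, with distances not to scale; filled points were called by limma at an adjusted p under 0.05 and open points were not, and n.a. marks Gc. The red stems of Afp at day 7, and of Alb, Afp and Afm at day 21, stand beside near-zero stems from Npffr2 to Ankrd17. Of these, Npffr2 was under background on all 3 days and Adamts3 at days 4 and 21.

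Regulators known to act on the control regions of Afp and Alb include the factors HNF4, FOXA, C/EBP and GATA, and the zinc finger proteins Zbtb20 and Zhx2, which repress Afp in postnatal liver. Of 26 listed regulators 23 were measured, and the others were not analysed here. In the first step 6 rose, 0 fell and 17 did not pass, with a median log2 change of 0.04. Over all genes, 6.98% were called higher and 6.47% lower in this step. Among the regulators the largest rises were those of the nuclear receptor Hnf4a (2.66 ± 0.18, SE), Foxa3 (1.67 ± 0.11), Gata4 (1.64 ± 0.13) and the nuclear receptor Nr2f2 (0.97 ± 0.15). The day 4 mean of Nr2f2 was under background.

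In the second step 13 of the 23 regulators rose, 3 fell and 7 did not pass, with a median of 0.58. Over all genes, 12.4% were called higher and 10.7% lower in this step. Onecut1, a liver and bile duct transcription factor, was under background at days 4 and 7 (5.62 ± 0.25 and 5.59 ± 0.25, SD, n = 3) and reached 8.96 ± 0.33 at day 21, so that its means were under and above background on the same days as those of Alb. Nr2f2 rose by a further 2.22 ± 0.15 and the glucocorticoid receptor gene Nr3c1 by 1.41 ± 0.16. Zbtb20 rose by 1.42 ± 0.16, with signals of 8.47, 8.57 and 8.41 at day 21 against 7.06, 7.12 and 7.02 at day 7, in the step in which Afp also rose. From day 4 to day 21, 16 regulators rose and 0 fell, among them Foxa1, which rose by 2.12 ± 0.09. The shares over all genes were 15.0% higher and 14.1% lower.

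Hnf4a, chosen for this remark after its values were seen, had signals of 9.94, 9.77 and 9.95 at day 7 and 8.72, 8.86 and 9.01 at day 21. It fell by 1.03 on the log2 scale in the step in which Afp and Alb rose (adjusted p = 0.00178). Gata4 and Foxa3 were also called lower in that step, with log2 changes of -1.13 and -0.63. Cebpa, the C/EBP factor of hepatocytes, also chosen after its values were seen, was under background at days 4 and 7 and reached a mean of 6.35 ± 0.30 at day 21 (SD, n = 3), just above the reference.

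Other plasma carriers and secreted liver proteins moved with the family in part. Of 32 measured, out of 33 listed, 16 rose, 0 fell and 16 did not pass in the first step, with a median log2 change of 0.50. These included Apob (5.83 ± 0.16, SE), the lipoprotein scaffold, the retinol carrier Rbp4 (4.25 ± 0.10) with its partner Ttr (4.30 ± 0.14), and the fibrinogen chain Fgb (3.71 ± 0.13). The day 4 means of Ttr and Fgb were under background. In the second step 17 rose, 8 fell and 7 did not pass, with a median of 0.56. Apob, Ttr and Rbp4 were among those that fell, with log2 changes of -2.50, -0.82 and -0.32, while Fgb rose by 1.01. By measured signal the largest rises were those of vitronectin, Vtn (4.07 ± 0.10), the alpha-1-microglobulin precursor Ambp (3.35 ± 0.19), the corticosteroid carrier Serpina6 (3.02 ± 0.35) and ceruloplasmin, Cp (2.96 ± 0.18). Serpina6 and Cp were under background at day 7. From day 4 to day 21, 27 rose, 0 fell and 5 did not pass, with a median of 1.64. Over all genes, 6.98% were called higher and 6.47% lower in the first step, and 12.4% and 10.7% in the second. From day 4 to day 21 the shares were 15.0% and 14.1%.

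Albumin family proteins are taken up from fluid by cubilin (Cubn), amnionless and megalin (Lrp2) with the adaptor Dab2, and albumin is rescued from degradation by the neonatal Fc receptor (Fcgrt). Of 12 listed and measured genes of uptake and recycling, 7 rose, 2 fell and 3 did not pass in the first step (median 0.79). Cubn rose by 6.28 ± 0.16, Dab2 by 3.23 ± 0.10, the megalin chaperone Lrpap1 by 2.41 ± 0.11 and Lrp2 by 1.54 ± 0.33. Cubn was under background at day 4, so the size of its rise is one of array signal. The 2 falls of the first step became 1 without replicate 1 or 3 of day 4 or of day 7. In the second step 3 rose and 6 fell (median -0.50), and Cubn, Lrp2 and Lrpap1 fell by 2.17, 1.60 and 1.33 on the log2 scale. Over all genes, 6.98% were called higher and 6.47% lower in the first step, and 12.4% and 10.7% in the second.

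Fcgrt was called in the second step and not in the first, as Alb was. Its signals were 6.14, 6.06 and 6.11 at day 4, 5.94, 6.36 and 6.03 at day 7, and 8.98, 8.49 and 8.99 at day 21. The arrays of days 4 and 7 overlapped near the background reference, and the second step was a rise of 2.71 ± 0.15 (adjusted p = 7.77e-07). Over the whole interval 6 of the 12 genes rose and 1 fell, with a median of 0.44, where 15.0% of all genes were called higher and 14.1% lower.

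Vitamin D handling, the pathway that the product of Gc serves, had 3 of 9 genes called from day 4 to day 21, when 15.0% of all genes were called higher and 14.1% lower. Of the 9 measured genes 0 passed limma's adjusted test in the first step, and 0 had an unadjusted p under 0.05, where the largest changes were those of the 25-hydroxylase gene Cyp2r1 (-0.40 ± 0.23) and the receptor gene Vdr (0.24 ± 0.12). In the second step Dhcr7, the last enzyme of cholesterol synthesis, which consumes the vitamin D precursor, fell by 0.51 on the log2 scale and no gene rose. From day 4 to day 21 Vdr rose by 0.57 ± 0.12, while Cyp2r1 and Dhcr7 fell by 0.69 and 0.33. These 2 falls were 0 without day 4 replicate 1 or 2 or day 21 replicate 1 or 2, and 1 without day 4 replicate 3 or day 7 replicate 2. Cyp2r1 was under background on all 3 days. Vdr was under it at days 4 and 7 and had a mean of 6.35 at day 21, so the size of its rise is one of array signal. Cyp27a1, Cyp27b1, Cyp24a1 and Cyp3a11 were also under it on all 3 days, so their missing calls do not show steady RNA. The medians of this list were -0.03, 0.01 and 0.09.

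Markers of cell types were read beside the family, since in bulk samples fewer cells of a type and less RNA per cell cannot be told apart. All 16 visceral endoderm markers were measured, and their summed linear signal was 3979 to 4369 on day 4 arrays, 30612 to 31288 on day 7 arrays and 8802 to 9507 on day 21 arrays. At day 4, Ttr, Cubn, Apoa1 and Apom were under background, and at days 7 and 21 none was. The sum was thus highest at day 7, whereas Afp was highest at day 21. Of these markers 14 rose in the first step, and 1 rose and 14 fell in the second. Ttr, Rbp4, Apoa1, Apob, Cubn, Lrp2, Amn, Dab2, Hnf4a and Foxa2 also stand in the gene lists above, so these counts are not independent of those. Over all genes, 6.98% were called higher and 6.47% lower in the first step, and 12.4% and 10.7% in the second. These shares stand beside the counts of the other marker lists too.

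Of 13 hepatoblast markers 12 were measured, with sums of 3651 to 5588, 7495 to 8387 and 9045 to 9951 at days 4, 7 and 21. Onecut1, Cebpa and Ahsg, the gene for fetuin-A, were under background at days 4 and 7, as Alb was, and at day 21 all 12 were above. In the first step 3 rose and 0 fell, and in the second 7 rose and 1 fell. The one that fell was Tbx3, a T-box factor of early liver growth, which rose by 1.56 ± 0.13 and then fell by 2.74 to a mean below that of day 4. The keratin genes Krt8 and Krt18, which many epithelia express, had high signals on all 3 days, with means of 11.24 and 11.59 at day 21, and weigh heavily in the sums. Onecut1, Prox1, Cebpa and Ahsg were also counted in the lists of regulators or plasma carriers.

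Most mesenchyme markers also rose in the step in which Alb and Afm rose. All 12 were measured, their sums were 2010 to 2148, 1079 to 1342 and 7591 to 15395 at days 4, 7 and 21, and 11 rose and 0 fell in the second step. In the first step 0 rose and 4 fell. From day 4 to day 21, 7 rose and 1, Twist1, fell, where 15.0% of all genes were called higher and 14.1% lower. Dcn and Lum, which define connective tissue cells, were under background at days 4 and 7 and above it at day 21. Among the day 21 arrays the mesenchyme sum, on the linear scale, was 15395, 10197 and 7591 in replicates 1, 2 and 3. The signals of Alb there, on the log2 scale, were 11.53, 11.71 and 11.25, so the spreads are in unlike units and were not compared. The part of these or the other marked cell types in the results was not tested. Without any 1 of the 9 arrays, the second-step change of Alb stayed between 6.08 and 6.31.

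Sums of parietal endoderm markers (9 of 9 measured) ran from 3899 to 4241, 5415 to 5530 and 8576 to 11606, and those of intestine markers (8 of 8) from 367 to 404, 755 to 905 and 1500.2 to 1781. In the second step 4 intestine markers rose, Krt20 by 3.64 ± 0.22, Cdh17 by 3.62 ± 0.18, Lgr5 by 2.15 ± 0.18 and Fabp2 by 1.67 ± 0.16, and 1, Vil1, fell by 0.94. All of these were above background at day 21, when Cdx2 and Sis were under it. Krt20, Cdh17, Lgr5 and Fabp2 were under background at day 7. Cardiac muscle sums (10 of 10) were 1095 to 1203, 3189 to 3545 and 1474 to 1598, and sums for pluripotent cells (10 of 10) were 4422 to 4669, 2740 to 2847 and 1001 to 1265. Tnnc1, with a mean of 10.89 at day 7, and Tdgf1, with 11.34 at day 4, weigh heavily in these sums. In the first step 5 cardiac markers rose and 5 did not pass. Of the pluripotent markers 2 rose, 3 fell and 5 did not pass. Neural sums (8 of 8) ran from 1226 to 1677, 846 to 869 and 565 to 664, and endothelial sums (8 of 8) from 750 to 994, 778 to 877 and 449 to 546. Of 7 measured erythroid markers 6, including the embryonic globin genes Hbb-bh1, Hbb-y and Hba-x, were under background on every day, with sums of 350.1 to 421, 323 to 355 and 264 to 288.

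**Figure D4:**
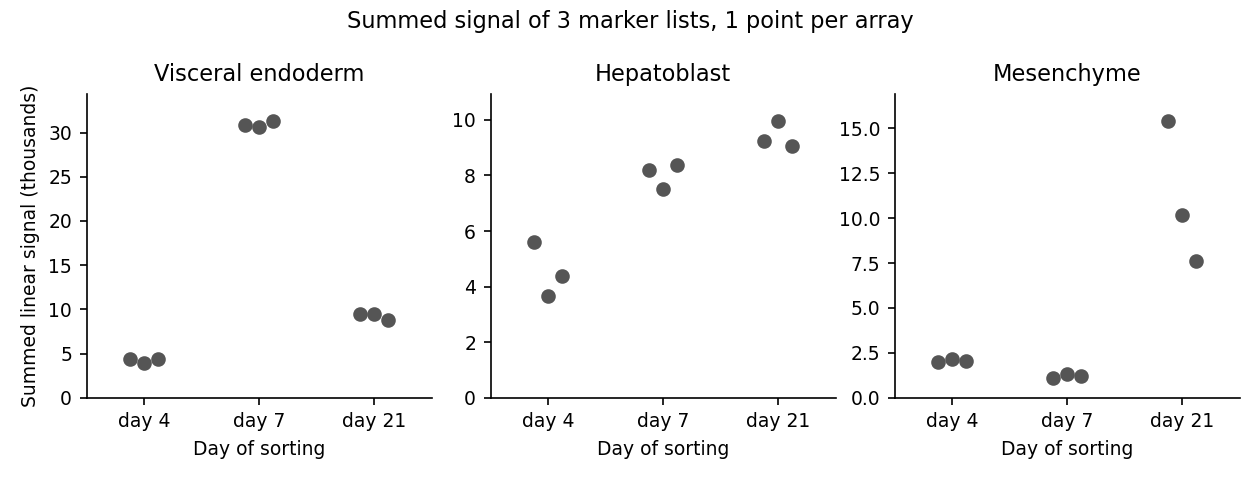
Summed linear signal (vertical axis, scaled as its label says, from 0, a separate scale per panel) of visceral endoderm, hepatoblast and mesenchyme markers, with 1 point per array at each day of sorting. Visceral endoderm sums peak at day 7 (30612 to 31288), and mesenchyme sums at day 21 spread from 7591 to 15395.

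Genes with the time course most like each member were found by the root mean square distance, over the 9 arrays, between log2 profiles that were each centred on their mean. Distances describe these arrays and carry no test, and with only 3 days many genes share a shape. Nearest to Afp were S100g, a calcium-binding protein (distance 1.01), Igfbp5, an insulin-like growth factor binding protein (1.02), Ambp (1.06), and the fibrinogen chains Fgb (1.08) and Fgg (1.46). All 5 rose in both steps, and from day 4 to day 21 none rose as far as Afp by measured signal, although Ambp and Igfbp5 rose further than Afp in the second step. Fgb, for example, went from 4.56 ± 0.16 through 8.26 ± 0.13 to 9.27 ± 0.19 (SD, n = 3). S100g, Ambp, Fgb and Fgg were under background at day 4, as Afp was.

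Nearest to Alb were the keratin gene Krt15 (distance 0.20), the uroplakin-family gene Upk1b (0.38), the proteoglycan gene Dcn (0.44), Cym, for the protease chymosin (0.47), and the keratin gene Krt17 (0.47). Krt15 changed by 0.08 ± 0.13 and then by 6.46 ± 0.13, close to the 0.02 and 6.19 of Alb, and none of the 5 was called in the first step. Krt15, Upk1b, Dcn and Krt17 were under background at days 4 and 7, as Alb was.

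Nearest to Afm were Btg2, an anti-proliferative gene (0.13), the cytochrome P450 gene Cyp2s1 (0.15), Ndrg2 (0.16), the immune checkpoint ligand gene Vtcn1 (0.17) and the uroplakin gene Upk1a (0.17). They rose in the second step by between 2.18 ± 0.12 (Upk1a) and 2.66 ± 0.15 (Cyp2s1), and none was called in the first. All 5 were above background on all 3 days, whereas Afm was under it at days 4 and 7. Their likeness to Afm is therefore one of array signals and does not show that the RNA changed alike. When profiles were scaled to unit SD, so that shape counts and size does not, 0 of the 5 genes nearest to Afp, 2 of those nearest to Alb (Krt15 and Upk1b) and 1 of those nearest to Afm (Btg2) were kept. The other genes then nearest to Alb were Gsta3, Hsd17b2 and Cyp11a1. Those then nearest to Afp were Ero1a, Vegfa, Ocln, Sgpp2 and Cyp3a13, and those nearest to Afm beside Btg2 were Pik3ap1, Cdh17, Tspan8 and Hsd17b2.

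**Figure D5:**
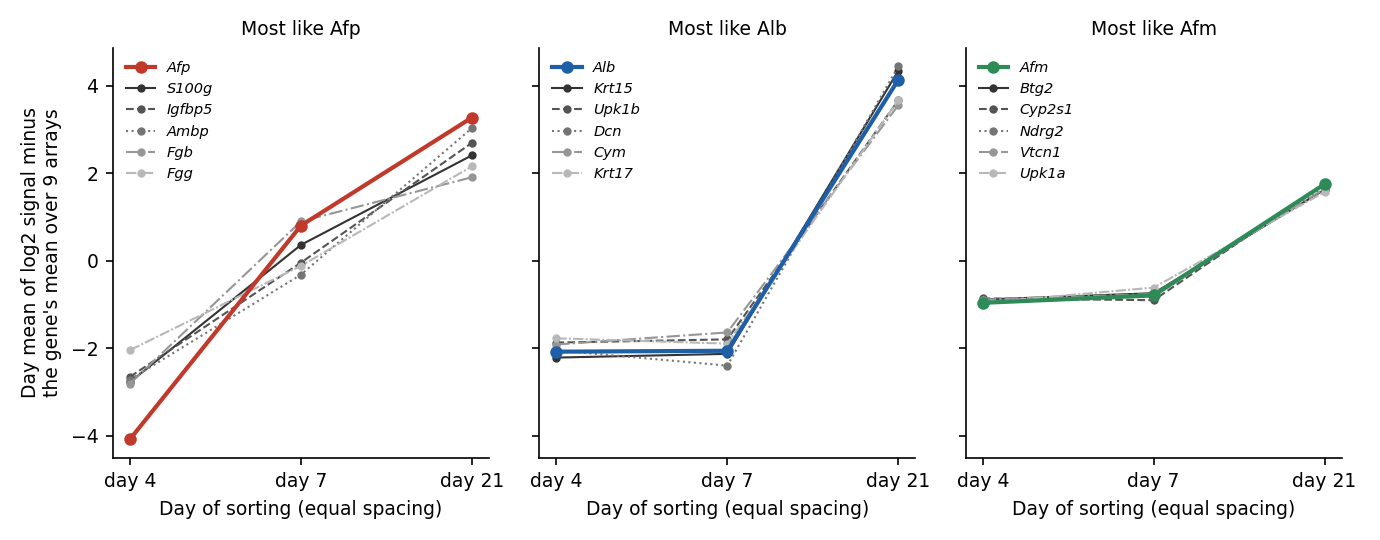
Day means of log2 signal minus each gene's mean over the 9 arrays (vertical axis) at the 3 days of sorting, drawn at equal spacing, for each member (coloured) and the 5 genes with the smallest distance to it (grey). The Alb and Afm panels show curves that are level from day 4 to day 7 and higher at day 21, and the Afp panel shows curves that rise in both steps.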

How the data were processed

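Total RNA of the sorted cells was labelled with an Affymetrix kit for very small inputs, per the labels' protocols, which amplifies RNA and can distort ratios of dim transcripts. The authors deposited log2 signals per probe set, for which the submitters' processing notes name RMA and Affymetrix Expression Console without a version. RMA normalizes probe signals between arrays before it summarises them per probe set, which can take out a change common to all transcripts. There is no counting depth on arrays, and precision is limited by their number.

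Of 34365 probe sets, 23521 carried 1 gene symbol, 1814 several and 9030 none, and the annotation can be old. Entrez numbers matched 23328 of the single-symbol probe sets to RefSeq (GRCm38.p6), which renamed 0. The brightest probe set per gene left 22180 genes. The 3 measured members matched RefSeq, as did Gc, and all 4 have a promoter entry. Gene coordinates are not given, since no source names the build behind the array annotation, and the assembly serves for gene order and promoters.

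For every gene, limma 3.58.1 (lmFit, eBayes) in R 4.3.3 estimated 1 mean for each day from the 9 arrays, so the comparisons share arrays and 1 estimate of spread. P-values were two-sided and Benjamini-Hochberg adjusted over all genes of a comparison, with an adjusted p under 0.05 as the threshold for a call. Intervals are 95% intervals of this model. Member pairs were compared by exact permutation tests. The labels do not say whether arrays of a day came from separate cultures. P-values here measure how far these samples differ among themselves, possibly for technical reasons. Same-numbered arrays of different days did not deviate together in every pair, so numbers were not taken as pairs.

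Members and lists were chosen with earlier results of these data known. All members are named. Of each list, up to 4 called genes per comparison with the largest changes are named, or 2 where none was called, all locus neighbours, and the 5 genes most like each called member without predicted, clone-named and small RNA models. Genes named outside this rule are said to be so or stand in marker lists. The olfactory reference was taken over from earlier work on these data. A bound on a fold sets the bright mean against the higher of the reference and the gene's own signal on each array of the dim day.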

Additional observations from a re-analysis of the deposited data

How the results depend on the processing

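The 9 member changes and 3 differences between steps were recomputed with arrays centred on their median, with an intensity trend and robust estimation of the prior variance, with the replicate number as a block, with the mean of all probe sets, with dim genes left out (13188 genes kept), for the 9 changes with only the 6 arrays of the compared days, and without each array in turn. All 177 values stayed on their side of the threshold, though the mean of all probe sets could move no member change, since each member has 1 probe set. The prior, block, dim-gene filter and 6-array fit act on the spread or adjusted p, not on the log2 changes. Alb and Afm passed that filter only through day 21, where they are high, so it gives no support to their rises. The sign differed in 4 of the 177 values, all for the uncalled first-step change of Alb, which ran from -0.05 to 0.16 when 1 array was left out. Afp ranged from 4.83 to 4.98 in the first step and from 2.43 to 2.53 in the second, and Afm from 2.46 to 2.69 in the second.

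Same-numbered arrays correlated at -0.05 to 0.26 in their deviations from the day means, and differently numbered ones at -0.18 to 0.07. Between days 7 and 21 the same-numbered arrays correlated at 0.08, 0.14 and 0.26, while all same-numbered pairs with a day 4 array were negative. The fit with the replicate block called 2895, 5041 and 6413 genes in the 3 comparisons against 2983, 5106 and 6448 without it, and changed no call of a member. Over all alternatives these counts ran from 2176 to 3592, 4108 to 5456 and 5423 to 6736.

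Of 450 recomputed list counts 21 moved by more than 1.5 times, all from counts of 2 or fewer. The 2 vitamin D genes that fell from day 4 to day 21 were 1 with the replicate block, with dim genes left out or with only the arrays of those days, and in the second step 1 of that list rose with dim genes left out or without day 7 replicate 2. The causes were not tested. Signal over background limits the sizes of changes that start below it, above all for Afm.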
